A study of Gossypium hirsutum with 24 samples.

Results

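The WRKY transcription factors described here are the 69 probe sets, of 23977 cotton probe sets tested on the Affymetrix Cotton GeneChip array, that the study's list of changed transcription factors gives to the WRKY family. That list held 523 distinct probe sets, WRKY was its largest family by label and the next largest had 47. The rank rests on 33 members matched to the single gene AT4G12020, which are described apart below. Only 35 members match other WRKY genes, which is fewer than 47. A probe set entered it when the bolls infested with bollworm (BS) and those kept free of it (CN, the control) differed by at least 3-fold at 1 stage or more, so the BS minus CN values below are those that chose the members and are given as a description, without a test. The other changes, between stages within CN and within BS, were tested, although on the same arrays.

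Bolls of Gossypium hirsutum L. cv. Bikaneri narma, grown in the field, were compared at 0, 2, 5 and 10 days post anthesis (dpa), with 3 arrays for each of the 8 groups and 24 arrays in all. In the BS groups larvae of the cotton bollworm Helicoverpa armigera had been released under a bag at flowering, for 8 h before the collection called 0 dpa and for the length of the stage at 2 and 5 dpa. Bolls of the BS group of 10 dpa were freed of the larva at 5 days and left to grow on. The stage thus differs from the others in time without a larva, and the sources used here give different lengths for that period. RNA came from the complete boll at the earlier pair of stages, 0 and 2 dpa, but in BS from only the damaged portion at the later pair. Stage and tissue therefore cannot be told apart between these pairs. The part of the control bolls used at 5 and 10 dpa is not stated, so tissue and infestation cannot be told apart there. Infested and control plants stood in separate plots, so plot and infestation cannot be told apart either. Each replicate was a pool of bolls from 5 plants. A pool mixes the cell types of the boll, and fewer cells of a type and less RNA per cell cannot be told apart in it.

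WRKY proteins are plant transcription factors named after a conserved run of residues in their DNA-binding domain, which is completed by a zinc finger and binds the W-box element in promoters, including those of WRKY genes themselves. Arabidopsis members are divided by the number of WRKY domains and the type of zinc finger into groups I, II (subgroups IIa to IIe) and III. The family is known for wound and pathogen responses, in which MAP kinases phosphorylate group I proteins such as WRKY33, and group III proteins such as WRKY70 and WRKY53 act in salicylic acid signalling and senescence.

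The family label held for about as many members as it failed, by name. By their best match in Arabidopsis, 35 probe sets matched 20 different WRKY genes (expectation values between 9e-125 and 2e-11), 1 matched RRS1, a disease resistance protein with a WRKY domain at its end, and 33 matched the single gene AT4G12020. AT4G12020 is called WRKY19 but also MAPKKK11 and MEKK4, since its product joins WRKY domains to a protein kinase domain. The matches of these 33 had expectation values between 5e-34 and 8e-10, and 25 of the 33 are named as a kinase or by the name of a kinase gene elsewhere in the study's annotation, among them MPK3, MKK9, CIPK6, WEE1 and Aurora kinase 1. The 33 are therefore called AT4G12020-matched here, no WRKY function is attached to them, and they are described apart from the 35 WRKY-gene-matched probe sets. Names are those of the Arabidopsis match and not of cotton genes established by sequence, and some of the 33 carry different kinase names in different annotations of the study. Members also overlap. Of the 69, 12 fall in pairs on 6 UniGene clusters, which leaves 63 clusters or transcripts, and 33 have identifiers ending in _s_at or _x_at, the array's mark for probes that can match more than 1 transcript.

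Only 1 member came with oligonucleotides in the study's material. The primer pair below was designed there for quantitative PCR of Ghi.3743.1.A1_at, the WRKY40-matched probe set with the largest BS minus CN value among the WRKY-gene-matched members. It is shown as the only oligonucleotides found for a member. The partner Ghi.3743.1.S1_at is on the same UniGene cluster, so the pair does not settle which transcript that value measures. Both are written 5′ to 3′ in lower case, with nothing marked.
WRKY40 forward: aatataccggcggacaaagag
WRKY40 reverse: ccaattcttctgcaatgtcgtatt

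Values are log2 expression values in which the median of each probe set over the 24 arrays is 0. They give changes of 1 probe set between arrays and no abundance, so no level is compared between genes, and no member was left out for a low value. Differences are in log2 units with the standard error of limma (n = 3 arrays per group), and a probe set was called when its Benjamini-Hochberg adjusted p was at most 0.01 and its fold change at least 3 (1.58 log2 units). Replicates were close, with a median SD within groups from 0.074 to 0.111, and replicates of a group correlated at r between 0.856 and 0.979 across probe sets. The spiked-in controls were not level. The 27 hybridization control probe sets were higher in BS by 0.664, 1.005, 0.808 and 0.8 at 0, 2, 5 and 10 dpa (medians), and the 42 poly-A control probe sets by 1.277, 2.041, 1.895 and 0.993. Centring the arrays on these controls moved the median BS minus CN difference of all probe sets to between -0.689 and -0.887 (hybridization) and to between -0.887 and -1.991 (poly-A). Directions of BS minus CN are therefore relative to the values as the authors normalized them.

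On the scale of the authors' values almost every WRKY-gene-matched probe set was higher in infested bolls, which did not hold at 2 and 5 dpa with the arrays centred on the poly-A controls. At 0 dpa 22 of the 35 were called higher in BS (background of all probe sets 4.19%), at 2 dpa 18 (3.34%), at 5 dpa 20 (6.39%) and at 10 dpa 30 (8.97%). The calls follow from the rule, and nothing is read from the excess. Their median differences were 2.21, 1.67, 1.91 and 2.25, against medians of all probe sets between -0.11 and 0.08. The BS and CN arrays of a stage did not overlap for 34, 34, 34 and 35 of the 35 (background 59.4%, 68.6%, 67.3% and 75.6%). A single WRKY-gene-matched probe set was called lower at any stage, at 2 dpa (background 4.46%). Values above 0 were found for 34, 30, 35 and 35 of the 35 at 0, 2, 5 and 10 dpa, but for 27, 11, 18 and 35 when the arrays were centred on the poly-A controls. The AT4G12020-matched probe sets were divided. Of the 33, 12, 7, 16 and 18 were called higher at the 4 stages and 0, 4, 1 and 10 lower (background 1.28% lower at 0 dpa, 2.46% at 5 dpa and 11.5% at 10 dpa), with 21, 20, 21 and 21 above 0, or 12, 5, 12 and 20 with poly-A centring.

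**Figure D1:**
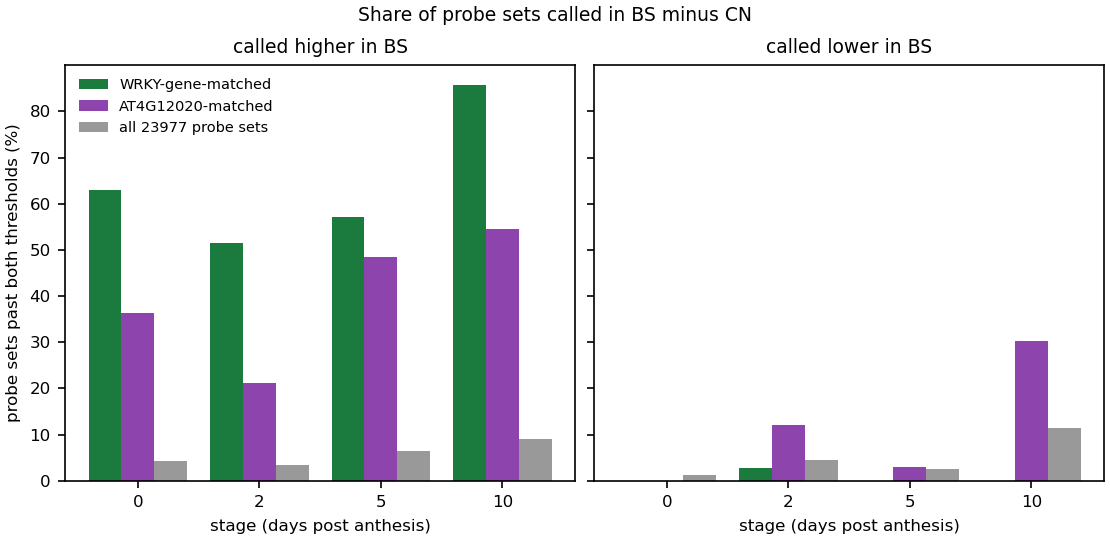
Share of probe sets called higher (left) or lower (right) in BS at each stage, in percent, for the 35 WRKY-gene-matched members, the 33 AT4G12020-matched members and all 23977 probe sets. The WRKY-gene-matched bars are high on the left at every stage and near 0 on the right, while AT4G12020-matched members were called in both directions at 10 dpa, 18 higher and 10 lower.

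Members close to the fold threshold had adjusted p-values far below 0.01, so the fold decided the calls. At 0 dpa the member just inside was WRKY33 (Ghi.9240.1.S1_s_at, 3.11-fold) and the one just outside a leucine-rich repeat transmembrane kinase (Ghi.273.2.S1_at, 2.82-fold lower). At 2 dpa these were PERK12 (GraAffx.16286.1.S1_x_at, 3.00-fold) and Lecrk (2.87-fold), and at 5 dpa PERK12 (3.04-fold) and WRKY70 (GhiAffx.2014.1.S1_s_at, 2.89-fold). This PERK12 call was lost at 2 dpa without CN replicate 1 or 2 or BS replicate 1 or 3 (1.5 to 1.58 log2 units) and at 5 dpa without CN replicate 2 or BS replicate 2 or 3 (1.55 to 1.58). At 10 dpa they were WEE1 (3.17-fold lower) and the unnamed Ghi.622.3.S1_s_at (2.94-fold). Of the listed memberships, 1 at 0 dpa, 2 at 5 dpa and 2 at 10 dpa were not called with the fit used here, and 1 at 2 dpa and 3 at 5 dpa were called without being listed. GhiAffx.15205.2.S1_at (CDC2) and GraAffx.8182.1.S1_s_at were called at no stage, with -1.54 and -1.51 at 10 dpa.

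**Figure D2:**
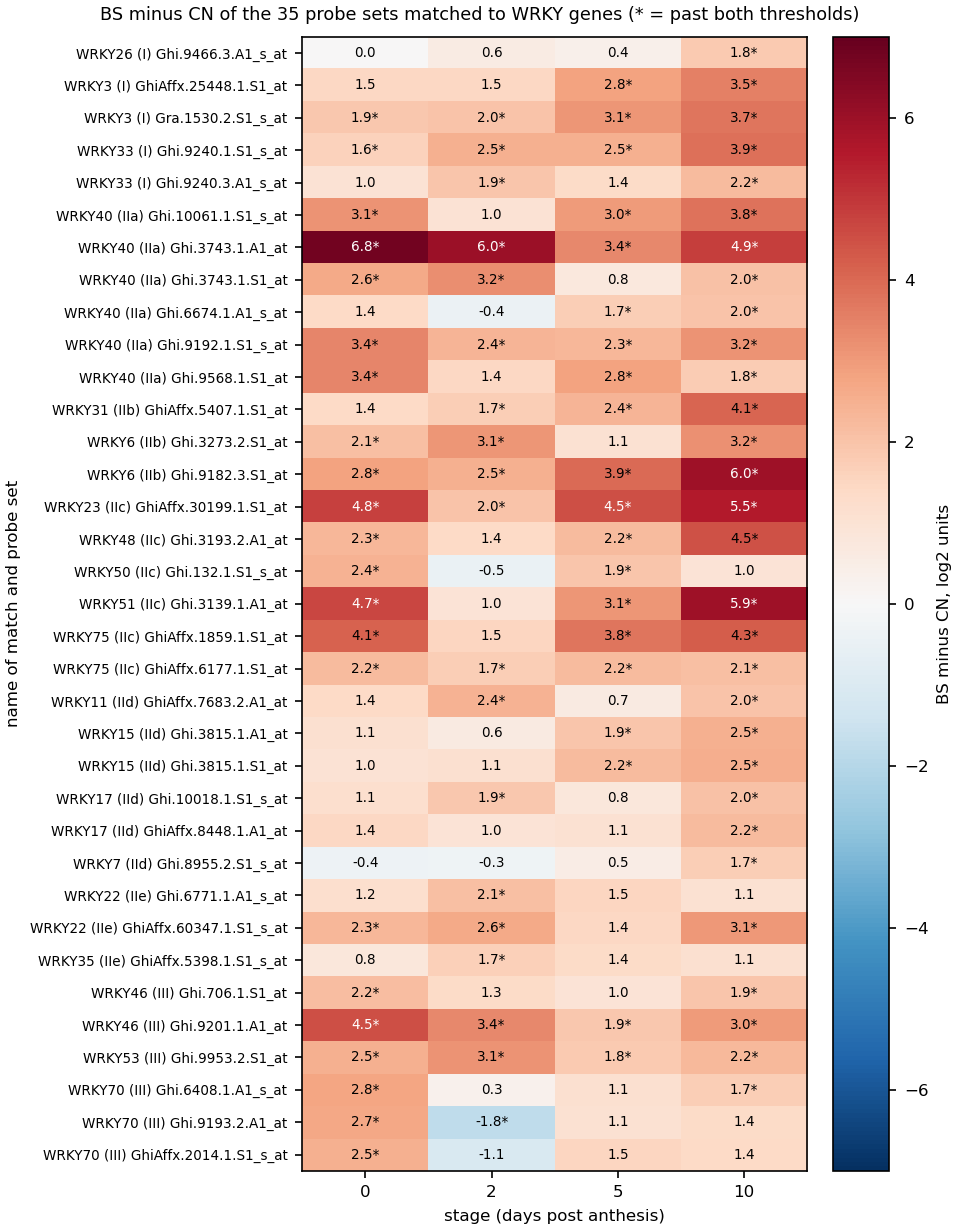
BS minus CN in log2 units (colour and printed value) for the 35 WRKY-gene-matched probe sets, one per row with the Arabidopsis name and WRKY group, at the 4 stages in columns; an asterisk marks a call. Red prevails in every group, the deepest cells are those of Ghi.3743.1.A1_at at 0 and 2 dpa, and the blue cells lie at 0 and 2 dpa, with 1 called, WRKY70 Ghi.9193.2.A1_at at 2 dpa.

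Group IIa was represented by 6 probe sets, all matched to WRKY40, which in Arabidopsis acts as a repressor with its close relatives in basal defence. Of these 5, 3, 5 and 6 were called higher at 0, 2, 5 and 10 dpa. Ghi.3743.1.A1_at had the widest separation of all WRKY-gene-matched probe sets. Its CN arrays read -2.38, -2.41 and -2.25 at 0 dpa and its BS arrays 4.37, 4.41 and 4.43. At 2 dpa CN read -1.92, -1.68 and -1.45 against 4.37, 4.35 and 4.27 in BS, and at 5 dpa -2.20, -1.67 and -1.72 against 1.45, 1.47 and 1.56. All BS arrays lay above all CN arrays at every stage, including 10 dpa, where CN read -2.16, -2.33 and -2.33 and BS 2.46, 2.67 and 2.62. BS minus CN was 6.75 ± 0.12, 6.01 ± 0.12, 3.35 ± 0.12 and 4.86 ± 0.12 at the 4 stages. The partner probe set on the same UniGene cluster, Ghi.3743.1.S1_at, had the same direction and a smaller size, with 2.63, 3.25, 0.76 and 2.03, and was not called at 5 dpa. Ghi.9192.1.S1_s_at was called at all 4 stages with 3.40, 2.39, 2.31 and 3.16. Ghi.10061.1.S1_s_at and Ghi.9568.1.S1_at were called at 0, 5 and 10 dpa but not at 2 dpa, where they stood at 1.02 and 1.43.

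Group IIc, which includes the phosphate starvation and senescence regulator WRKY75 and the salicylic acid-responsive WRKY50 and WRKY51, had 6 probe sets, called higher in 6, 2, 6 and 5 cases. The WRKY23-matched GhiAffx.30199.1.S1_at read -4.23, -4.10 and -4.42 in CN and 0.54, 0.52 and 0.55 in BS at 0 dpa. At 2 dpa the groups were closer but did not overlap, with -0.52, -0.60 and -0.57 in CN and 1.33, 1.55 and 1.43 in BS. Its differences were 4.79 ± 0.09, 2.00 ± 0.09, 4.53 ± 0.09 and 5.54 ± 0.09. The WRKY51-matched Ghi.3139.1.A1_at reached 4.69 at 0 dpa and 5.92 at 10 dpa and stood at 0.97 at 2 dpa, and 1 of the WRKY75-matched probe sets, GhiAffx.1859.1.S1_at, at 4.12, 1.51, 3.76 and 4.26. The other WRKY75-matched probe set, GhiAffx.6177.1.S1_at, kept near 2 at all 4 stages (2.21, 1.74, 2.21 and 2.11). WRKY48 (Ghi.3193.2.A1_at) was highest at 10 dpa, with 4.48.

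Group III, with 6 probe sets, was called higher in 6, 2, 2 and 4 cases and held the only member called in opposite directions (background of such reversals 0.309%). WRKY46-matched Ghi.9201.1.A1_at was called at all stages, with 4.52 ± 0.09, 3.35 ± 0.09, 1.91 ± 0.09 and 2.99 ± 0.09, and so was WRKY53-matched Ghi.9953.2.S1_at, with 2.49, 3.15, 1.83 and 2.25. The 3 probe sets matched to WRKY70 behaved differently. They were called higher at 0 dpa with 2.47, 2.72 and 2.76, and stood at -1.05, -1.80 and 0.31 at 2 dpa. In Ghi.9193.2.A1_at the CN arrays read -2.79, -2.89 and -3.15 at 0 dpa and 1.18, 1.33 and 1.31 at 2 dpa. The BS arrays read -0.18, -0.20 and -0.28, then -0.52, -0.48 and -0.57. The infested bolls thus changed little between these stages while the control bolls passed them, and the order of the groups was turned without overlap. Ghi.9193.2.S1_s_at, a probe set with the same identifier number outside the family list, had the same signs but no call at either stage. At 5 dpa BS was again above CN, with 1.24, 1.28 and 1.27 against 0.21, 0.22 and 0.18.

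Group I, whose proteins carry a WRKY domain at each end and include the MAP kinase substrate WRKY33, had 5 probe sets, with 2, 3, 3 and 5 called higher and a median difference that was 1.47 at 0 dpa and 3.53 at 10 dpa. WRKY33-matched Ghi.9240.1.S1_s_at was called at all stages with 1.64 ± 0.04, 2.49 ± 0.04, 2.47 ± 0.04 and 3.86 ± 0.04. The CN arrays had the lowest values of this probe set at 10 dpa, at -2.81, -2.75 and -2.84, and the BS arrays at 10 dpa stood at 1.04, 1.05 and 1.08. Its partner on the UniGene cluster, Ghi.9240.3.A1_s_at, was called only at 2 and 10 dpa (1.95 and 2.23). Of the WRKY3-matched probe sets, Gra.1530.2.S1_s_at was called at all stages (1.89, 2.01, 3.11 and 3.74) and GhiAffx.25448.1.S1_at at 5 and 10 dpa (2.81 and 3.53). WRKY26-matched Ghi.9466.3.A1_s_at was called at 10 dpa alone, with 1.83.

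Group IIb, in which Arabidopsis WRKY6 takes part in senescence and phosphate responses, had 3 probe sets, all called higher at 2 and 10 dpa. WRKY6-matched Ghi.9182.3.S1_at was called at every stage, with 2.84 ± 0.08, 2.51 ± 0.08, 3.94 ± 0.08 and 5.95 ± 0.08, and at 10 dpa its CN arrays read -3.16, -3.26 and -3.06 against 2.79, 2.84 and 2.73 in BS. GhiAffx.5407.1.S1_at, on the same UniGene cluster but matched to WRKY31, was not called at 0 dpa, with 1.37, and reached 4.06 at 10 dpa. Group IId, the calmodulin-binding subgroup, had 6 probe sets (matched to WRKY7, WRKY11, WRKY15 and WRKY17). None of them was called at 0 dpa in limma or with the methods' t-test, where their differences were between -0.36 and 1.43 and 6 of the 6 had an unadjusted p under 0.05 in limma, and 6 were called at 10 dpa, between 1.70 and 2.55. Of these, GhiAffx.8448.1.A1_at (WRKY17) and Ghi.8955.2.S1_s_at (WRKY7) were called at 10 dpa alone, with 2.19 and 1.70. Group IIe was called higher at 2 dpa in 3 of 3 probe sets, of which Ghi.6771.1.A1_s_at (WRKY22) and GhiAffx.5398.1.S1_s_at (WRKY35), of 1 UniGene cluster, were called at no other stage, with 2.08 and 1.67.

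In all, 9 of the 35 WRKY-gene-matched probe sets were called higher at all 4 stages (background 1.45%), matched to WRKY3, WRKY6, WRKY23, WRKY33, WRKY40 (in 2 cases), WRKY46, WRKY53 and WRKY75. Of the others, 9, 11 and 6 were called at 3, 2 and 1 stages. The RRS1-matched Ghi.925.1.S1_at stood at 0.30 and 0.84 at 0 and 2 dpa and was called at 5 and 10 dpa, with 2.55 ± 0.11 and 3.36 ± 0.11.

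**Figure D3:**
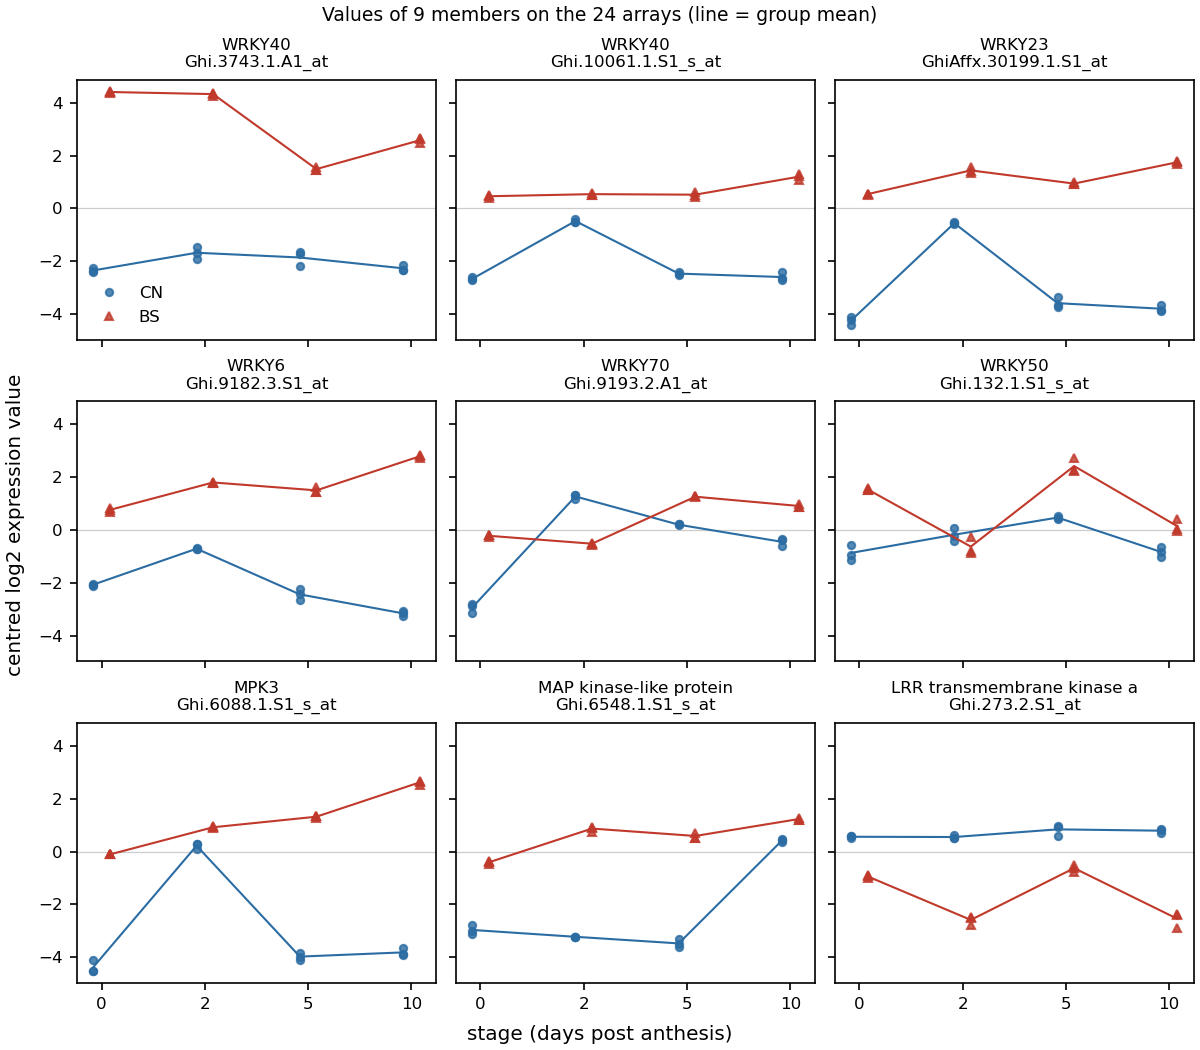
Centred log2 value (vertical) of 9 members on each array at 0, 2, 5 and 10 dpa (horizontal, evenly spaced), with circles for CN, triangles for BS and lines through group means. The top row and WRKY6 keep BS above CN throughout, WRKY70 crosses at 2 dpa, and the CN lines of WRKY40 Ghi.10061.1.S1_s_at, WRKY23 and MPK3 peak at 2 dpa.

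Among the AT4G12020-matched probe sets, most of those named as MAP kinases and MAP kinase kinases, the enzymes of the cascade that passes wound and pathogen signals on to WRKY proteins, were higher in BS on the scale of the authors' values. An exception was Ghi.2823.1.S1_s_at, named MPK3 in 1 annotation and only as a protein kinase in another, with -0.56, -1.34, -0.91 and -2.24 and called lower at 10 dpa. MPK3-named Ghi.6088.1.S1_s_at read -4.52, -4.11 and -4.52 in CN and -0.11, -0.11 and -0.10 in BS at 0 dpa, and -3.88, -3.92 and -3.65 against 2.69, 2.64 and 2.53 at 10 dpa. At 2 dpa the values nearly met, with 0.10, 0.30 and 0.27 in CN and 0.93, 0.88 and 0.96 in BS. Its differences were 4.28 ± 0.10, 0.70 ± 0.10, 5.30 ± 0.10 and 6.44 ± 0.10. The other MPK3-named probe set of this UniGene cluster, Ghi.7954.1.S1_s_at, was also called at 2 dpa, with 4.26, 2.85, 2.99 and 2.75, so the pair agreed in direction and differed in call at that stage. MKK9 (Ghi.5022.4.A1_s_at) stood at 4.76, 1.41, 4.09 and 5.37. The probe sets named MKK7 stood at 2.26, 0.59, 4.98 and 6.28 (GraAffx.3187.1.S1_s_at) and at 1.71, 2.10, 2.22 and 4.96 (GhiAffx.48901.1.S1_at). MAPKKK14 (Ghi.3232.1.S1_at) was called at all 4 stages, up to 5.39 at 10 dpa. CIPK6, a kinase that acts with calcineurin B-like calcium sensors, was named for 2 probe sets, and GraAffx.14386.1.S1_at had the largest value of the 33, 6.92 ± 0.12 at 10 dpa. EDR1, in Arabidopsis a negative regulator of defence and senescence, was the name of GhiAffx.63965.1.S1_at, called at 10 dpa alone with 1.80. The receptor kinase Lecrk was called at 0 dpa alone, with 2.69.

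The AT4G12020-matched probe sets called lower included kinases of cell division and receptor kinases. Aurora kinase 1 (Ghi.6423.1.A1_at), a histone H3 kinase of mitosis, stood at -2.64 at 2 dpa and -2.40 at 10 dpa, and WEE1, which restrains entry into mitosis, at -1.66 at 10 dpa (-1.51, and no call, without BS replicate 2 of that stage). CDC2, the central cyclin-dependent kinase, missed the fold threshold with -1.54 at 10 dpa (-1.66, and called, without BS replicate 3). BRL3, a brassinosteroid receptor (GhiAffx.25218.1.S1_s_at), stood at -1.83, -1.63 and -3.67 at 2, 5 and 10 dpa. The leucine-rich repeat transmembrane kinase Ghi.273.2.S1_at read 0.53, 0.62 and 0.50 in CN and -2.48, -2.78 and -2.51 in BS at 2 dpa. A second transmembrane kinase of the same description, GhiAffx.3484.1.A1_s_at, was called at 10 dpa, with -2.68, as was the leucine-rich repeat kinase Ghi.3569.1.S1_s_at, with -1.97. PERK12, another name given to Ghi.3569.1.S1_s_at, was also that of Ghi.121.2.S1_at, with -3.20 at 10 dpa, and of GraAffx.16286.1.S1_x_at, with 1.89. Of the 12 AT4G12020-matched probe sets called at a single stage, 10 were called at 10 dpa, the exceptions being Lecrk and Ghi.622.3.S1_s_at, the latter called at 5 dpa with 1.70 (1.47, and no call, without CN replicate 3 of that stage). Lower at 10 dpa were also Ghi.7758.1.S1_at (-3.0) and GraAffx.28370.1.S1_at (-3.57), and higher were Ghi.7273.1.S1_s_at (2.05), Gra.114.1.A1_at (1.98) and GraAffx.8891.1.S1_at (3.37).

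**Figure D4:**
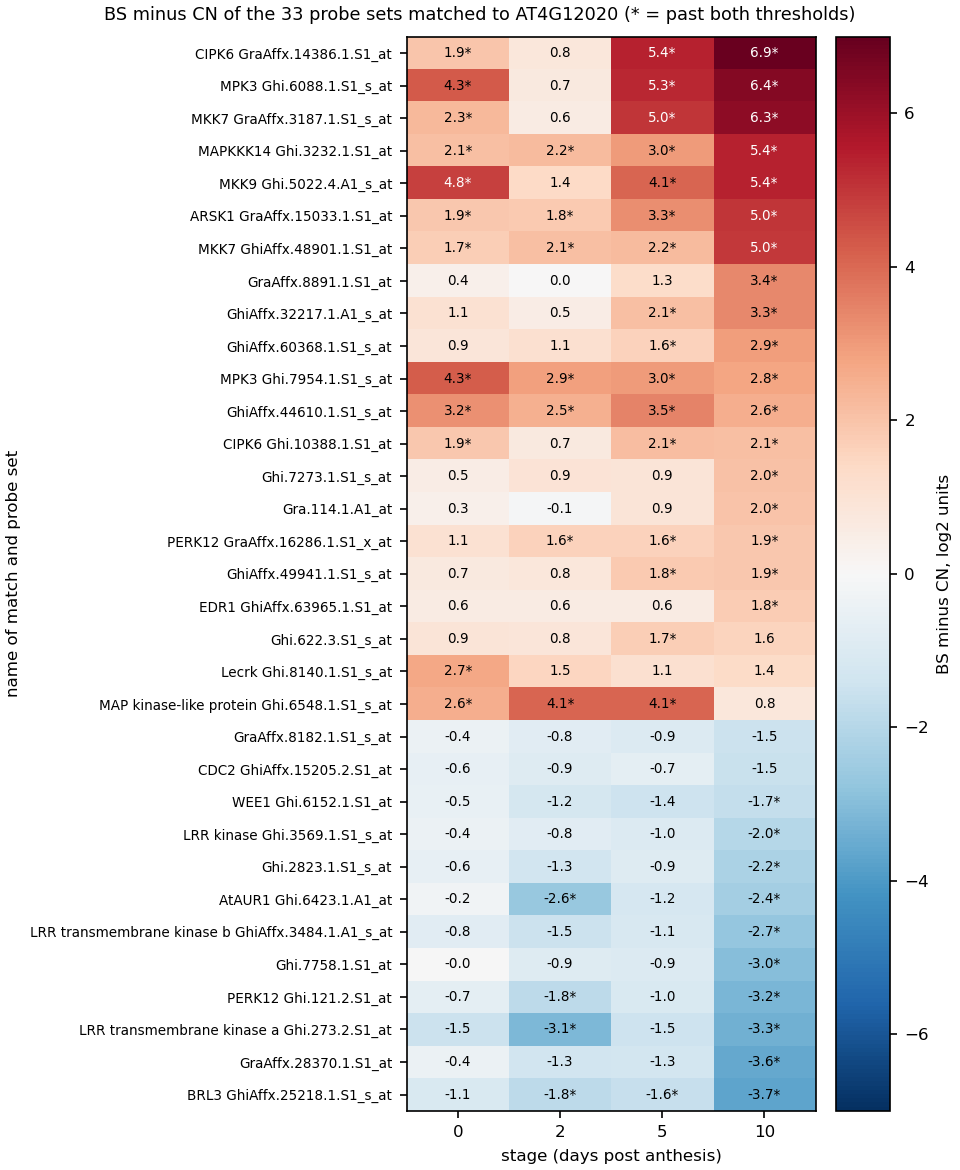
BS minus CN in log2 units (colour and printed value) for the 33 AT4G12020-matched probe sets, ordered by the value at 10 dpa, with the kinase name where one is given; an asterisk marks a call. The upper rows (CIPK6, MPK3, MKK7, MAPKKK14, MKK9) are red and the lower rows (BRL3, the transmembrane kinases, Aurora kinase 1) blue, with the widest range, 6.92 to -3.67, at 10 dpa.

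The next question was whether members changed between stages without a larva. In control bolls, 8 of the 35 WRKY-gene-matched and 6 of the 33 AT4G12020-matched probe sets rose from 0 to 2 dpa (background 2.08%), and none of the 69 fell past the thresholds in limma or with the methods' t-test (background 0.73%), while 5 fell and 41 rose at an unadjusted p under 0.05 in limma. The rises were those of WRKY70 Ghi.9193.2.A1_at (4.21 ± 0.08, adjusted p = 4.4e-20), WRKY75 GhiAffx.1859.1.S1_at (3.71 ± 0.07, adjusted p = 1.9e-19), WRKY23 (3.69 ± 0.09, adjusted p = 7.3e-18) and WRKY51 (3.42 ± 0.10, adjusted p = 4e-17). The other WRKY70-matched probe sets rose by 2.62 and 2.04, and the WRKY40-matched Ghi.9568.1.S1_at and Ghi.10061.1.S1_s_at by 2.48 and 2.19. MPK3 Ghi.6088.1.S1_s_at rose most of all members, by 4.61 ± 0.10 (adjusted p = 2.9e-19), followed among the kinases by MKK9 (4.08 ± 0.07), MKK7 GraAffx.3187.1.S1_s_at (3.81 ± 0.10), CIPK6 (2.48 and 1.66) and MPK3 Ghi.7954.1.S1_s_at (1.77). The 14 calls were the same in number under both spike-in centrings, leaving out any single array left 14, and quantile normalization left 7 and 4 rises and called 1 member of each class lower. Quantile normalization was run here on values already quantile normalized in RMA and then centred. It gives every array the same distribution of centred values, so arrays that depart widely are narrowed by design. Calls lost or gained under it therefore do not decide whether a change was present.

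For 8 of these 14 the rise ended by 5 dpa, a step over which the sampled part of the control bolls may also have changed. From 2 to 5 dpa 5 WRKY-gene-matched and 4 AT4G12020-matched probe sets fell in CN (background 2.13%), and none of the 69 rose past the thresholds in limma or with the methods' t-test (background 1.08%), while 12 rose at an unadjusted p under 0.05 in limma. The change was -4.20 ± 0.10 (adjusted p = 1.3e-18) for MPK3 Ghi.6088.1.S1_s_at, -3.62 ± 0.10 for MKK7, -3.02 ± 0.09 for WRKY23, -3.02 ± 0.07 for WRKY75 GhiAffx.1859.1.S1_at and -2.81 ± 0.07 for MKK9. It was -2.39 for CIPK6 GraAffx.14386.1.S1_at, -2.14 and -1.99 for the WRKY40-matched Ghi.9568.1.S1_at and Ghi.10061.1.S1_s_at, and -1.73 for WRKY6 Ghi.9182.3.S1_at, whose change of 1.36 from 0 to 2 dpa had missed the fold threshold. The 3 WRKY70-matched probe sets and WRKY51 did not fall back past the threshold at this step. Neither did CIPK6 Ghi.10388.1.S1_at (-1.23) and MPK3 Ghi.7954.1.S1_s_at (-0.53). WRKY51 fell from 5 to 10 dpa instead (-2.05 ± 0.10, background of falls 0.542%), a call lost with quantile normalization (-1.39). From 5 to 10 dpa in CN 2 members rose (background 1.41%). One was the MAP kinase-like protein Ghi.6548.1.S1_s_at, whose CN arrays read -3.33, -3.49 and -3.62 at 5 dpa and 0.44, 0.46 and 0.35 at 10 dpa, a rise of 3.89 ± 0.08 (adjusted p = 1.9e-18). Its BS arrays at 10 dpa, at 1.20, 1.28 and 1.21, lay above the raised CN level by 0.81. The other was GhiAffx.44610.1.S1_s_at, a protein kinase family probe set, with 1.59, which was lost without CN replicate 3 of 5 dpa (1.54) or CN replicate 2 of 10 dpa (1.56).

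The rise of the controls enters BS minus CN at 2 dpa, since BS minus CN changes between stages by the step in BS less the step in CN. Over the same step the BS values of the 8 WRKY-gene-matched members among the 14 that rose in CN moved by between -0.90 and 1.11 and none was called, and those of the other 6 moved by between 0.36 and 2.14 with 1 called, MKK7 GraAffx.3187.1.S1_s_at. The rise was not particular to the members. Among all 1005 probe sets called higher in BS at 0 dpa, 35.4% rose in CN from 0 to 2 dpa, beside 36.4% of the 22 WRKY-gene-matched and 50% of the 12 AT4G12020-matched members so called. The CN arrays of 0 dpa enter both differences. Markers of green boll wall, 17 probe sets for photosystem and chlorophyll-binding proteins, also moved over this step, from between -0.72 and -0.67 to between 0.46 and 0.48 in the mean of the list on each CN array. The mean of 42 probe sets called fibre markers here moved from between 0.00 and 0.02 to between 0.19 and 0.22. They are described as expansins, expansin-like proteins, fasciclin-like arabinogalactan proteins or the fiber protein GLP1. Whether they are particular to fibre cells was not checked. The fibre list went both ways, with a median change of -0.14, 19 above and 23 below 0, and values from -2.6 to 8.45. The part of both lists in the result was not tested.

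**Figure D5:**
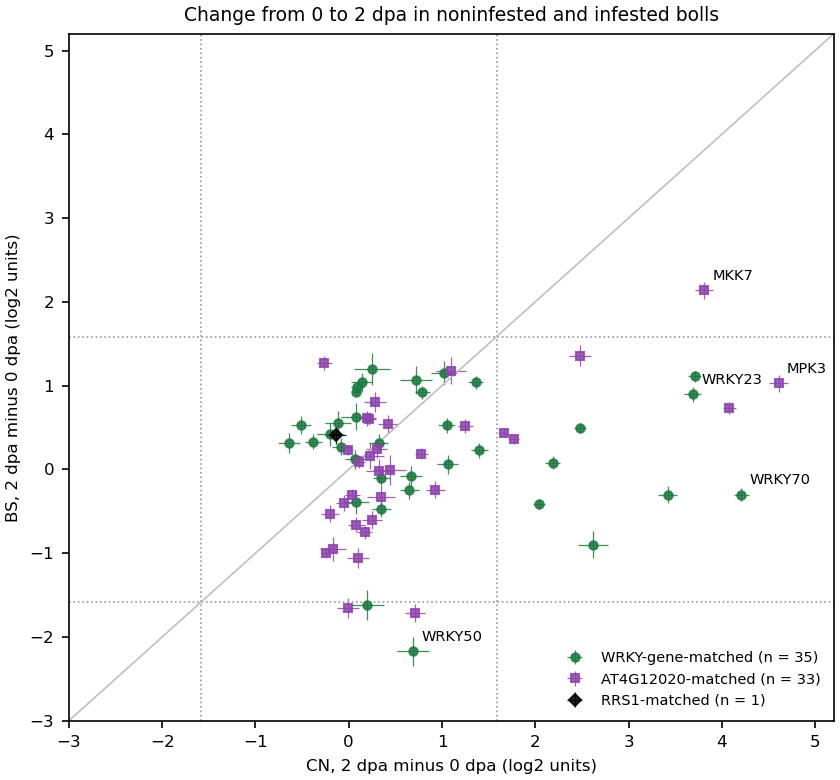
Change from 0 to 2 dpa in CN (horizontal) against the change in BS (vertical), in log2 units with standard errors, for the 69 members; dotted lines mark the 3-fold threshold and the grey line equal change. The 14 members right of the right dotted line lie below the grey line, MPK3 farthest right at 4.61, and WRKY50 is lowest at -2.17.

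In infested bolls 5, 10 and 13 members changed over the 3 steps. From 0 to 2 dpa WRKY50 (Ghi.132.1.S1_s_at) and WRKY40 Ghi.6674.1.A1_s_at fell (-2.17 ± 0.17, adjusted p = 1.1e-09, and -1.62 ± 0.18, adjusted p = 1.4e-07), together with Aurora kinase 1 (-1.71) and the transmembrane kinase Ghi.273.2.S1_at (-1.65), against a background of 1.94% lower. MKK7 GraAffx.3187.1.S1_s_at rose by 2.14 ± 0.10 (background 0.463% higher). The change of Aurora kinase 1 was -1.54 and no call without BS replicate 3 of 2 dpa. From 2 to 5 dpa, when sampling also changed from whole boll to infested portion, 4 WRKY-gene-matched probe sets rose and 4 fell (background 2.63% and 0.53%). The WRKY40-matched Ghi.3743.1.A1_at (-2.84 ± 0.12, adjusted p = 3.4e-14) and Ghi.3743.1.S1_at (-2.09 ± 0.14) fell, as did WRKY11 GhiAffx.7683.2.A1_at (-1.91) and WRKY6 Ghi.3273.2.S1_at (-1.64). WRKY50 rose by 3.05 ± 0.17 (adjusted p = 4.7e-12), WRKY40 Ghi.6674.1.A1_s_at by 1.91 and 2 of the WRKY70-matched probe sets by 1.79 and 1.61. CIPK6 GraAffx.14386.1.S1_at (2.16) and the transmembrane kinase Ghi.273.2.S1_at (1.96) rose as well.

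WRKY50 alternated over the infested series. Its BS arrays read 1.52, 1.58 and 1.52 at 0 dpa, -0.78, -0.26 and -0.86 at 2 dpa, 2.72, 2.25 and 2.29 at 5 dpa and 0.03, -0.03 and 0.41 at 10 dpa, and no neighbouring stages overlapped. Its CN arrays lay between -1.12 and 0.52 throughout. The step from 5 to 10 dpa was -2.28 ± 0.17 (adjusted p = 2.4e-10). In that step 1 other WRKY-gene-matched probe set was called, WRKY22 GhiAffx.60347.1.S1_s_at, which rose by 1.80 ± 0.10, and 11 AT4G12020-matched probe sets, 5 higher and 6 lower (background 1.18% and 4.95%). MKK7 GhiAffx.48901.1.S1_at rose by 2.46 ± 0.07 and MAPKKK14 by 2.10 ± 0.16, and BRL3 (-2.52 ± 0.06), PERK12 Ghi.121.2.S1_at (-1.83 ± 0.12) and Aurora kinase 1 (-1.87 ± 0.11) fell. With quantile normalization 1 of these 13 calls was left, that of WRKY50 (-2.44), and none of the AT4G12020-matched was called either way. Because that step narrows arrays with wide departures by design, the lost calls do not decide whether these changes were present. Fibre markers stood between 0.03 and 0.14 in the mean of the list on BS arrays at 5 dpa and between -2.02 and -1.98 at 10 dpa, and their part in these steps was not tested.

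Probe sets around the family were taken from the descriptions of changed transcripts in the study's tables, so they too were chosen on these arrays. Nothing is read from their counts. The background was 4.19%, 3.34%, 6.39% and 8.97% called higher at 0, 2, 5 and 10 dpa, and 1.28%, 4.46%, 2.46% and 11.5% lower. Of 12 further probe sets described as MAP kinase cascade members (2 of which the array annotation calls cyclin-dependent kinases of type B), 7, 3, 5 and 7 were called higher and 0, 1, 2 and 1 lower at the 4 stages, with list medians of 1.90, 1.12, 1.38 and 1.71. The list ran from -4.51 to 2.05 at 2 dpa and from -4.72 to 6.23 at 10 dpa. Ghi.9528.1.S1_at, 1 of these 2 cyclin-dependent kinases, is named MPK3 in another annotation. Of 2 further MPK3-named probe sets without a cyclin-dependent kinase name, Ghi.6088.2.A1_s_at stood at 0.94 at 2 dpa (5.06, 5.53 and 6.23 at the other stages). It rose in CN from 0 to 2 dpa by 4.87. The other, Ghi.6088.2.S1_at, called at all stages, stood at 1.72 at 2 dpa and rose by 2.93. ACC synthases, which make the ethylene precursor and are transcribed under WRKY33 in Arabidopsis, were called higher in 4, 6, 5 and 6 of 6 cases, and Ghi.23.4.A1_at rose in CN from 0 to 2 dpa by 5.26 and then fell by 5.12. No probe set was described as a VQ motif protein, a partner of WRKY domains.

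A WRKY description was found for 5 probe sets outside the family list. WRKY41-described Ghi.1132.2.A1_a_at stood at 3.32, 2.75, 2.90 and 5.22, Ghi.3273.1.A1_at at 2.62, 3.85, 1.91 and 4.43, and WRKY22-described Ghi.10332.1.A1_x_at at 2.36, 2.99, 1.87 and 3.08, and these 3 were called higher at all 4 stages. The WRKY70-described Ghi.9193.2.S1_s_at, which shares its identifier number with the member Ghi.9193.2.A1_at, was called at no stage (0.89, -1.32, 1.48 and 1.49). It rose in CN from 0 to 2 dpa by 2.30. WRKY58-described GhiAffx.24101.1.S1_at was called at none (between 0.77 and 1.12). The family list therefore does not hold every probe set with a WRKY description.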

How the data were processed

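The authors' log2 expression values came from RMA (background correction, quantile normalization, median polish) of the array scans in GeneSpring GX, and were deposited centred on the median of each probe set, as found from the values. No RMA version was stated. Of the 24132 rows, 103 for AFFX controls and 52 for RPTR reporters were not tested. From these deposited log2 values, 8 group means were fitted to 24 arrays with limma 3.58.1 (R 4.3.3, 16 residual and 3.53 prior degrees of freedom). Contrasts were adjusted by Benjamini-Hochberg over 23977 probe sets, in place of the unpaired t-test of the methods, which was run as an alternative. The code was tested on simulated data.

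Members and gene lists were chosen with earlier results of these data known. Members are named if called at all 4 stages, at 1 or none, or in both directions, among the 5 largest BS minus CN values of each class or the 3 largest of a step, differing within a UniGene cluster, or named as a kinase elsewhere. A few others illustrate their WRKY group. Lists are word patterns on descriptions. Alternatives were the spread estimate, test, scaling, thresholds, replicate block, control probe sets, 1 probe set per UniGene cluster and leaving out each array. The number of arrays limits the precision: an exact permutation test of 3 against 3 cannot go below p = 0.1. No genome coordinates were used.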

Additional observations from a re-analysis of the deposited data

Results flagged for a closer look

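WRKY70-matched Ghi.9193.2.A1_at was singled out because its BS minus CN difference had opposite signs at 2 stages, 2.72 at 0 dpa and -1.80 at 2 dpa, with all BS arrays on one side of all CN arrays each time. Ghi.9193.2.S1_s_at, outside the family list but with the same identifier number, had the same signs (0.89 and -1.32). It was called at neither stage, so the called reversal rests on Ghi.9193.2.A1_at alone. The difference between the stages was not tested, since the rule for the members used these values.

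The spiked-in control probe sets, which lie outside the comparison of genes, were higher in BS than in CN at every stage. The medians of the hybridization controls were 0.664, 1.005, 0.808 and 0.8 at 0, 2, 5 and 10 dpa, and those of the poly-A controls 1.277, 2.041, 1.895 and 0.993. Their part in the BS minus CN values of the members was not tested beyond the centrings given below.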

How the results depend on the processing

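Counts of called members changed little with the test, the spread estimate, the kept control probe sets or 1 probe set per UniGene cluster, all within 1.5 times. The replicate block also moved no count by more than 1.5 times and gave 22, 18, 20 and 30 WRKY-gene-matched probe sets higher in BS. Nothing in the labels pairs equal numbers, and deviations of same-numbered CN and BS arrays correlated at r between -0.240 and 0.108, so the block was not used. Leaving out 1 array gave 1 to 2 AT4G12020-matched probe sets lower at 5 dpa (2 without CN replicate 3), 2 to 5 members changed in CN from 5 to 10 dpa (5 without CN replicate 1 of 5 dpa) and 3 to 5 in BS from 0 to 2 dpa (3 without BS replicate 2 or 3 of 2 dpa).

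The scaling moved counts as follows, and the cause was not tested. Centred on the hybridization controls, 6, 11 and 17 WRKY-gene-matched probe sets were called higher at 2, 5 and 10 dpa and 2 lower at 2 dpa, and of the AT4G12020-matched 7, 2 and 9 were higher and 2, 12 and 11 lower at 0, 2 and 5 dpa, with 6 members changed in CN from 5 to 10 dpa. Centred on the poly-A controls, 8, 1, 3 and 16 WRKY-gene-matched were higher at the 4 stages and 1 and 6 lower at 0 and 2 dpa, 4, 1 and 5 AT4G12020-matched were higher and 10, 14 and 12 lower at 0, 2 and 5 dpa, and 12 members changed in CN from 5 to 10 dpa and 8 in BS from 0 to 2 dpa. Quantile normalization of the centred values gave 2 WRKY-gene-matched lower at 2 dpa, 1, 2 and 5 AT4G12020-matched lower at 0, 5 and 10 dpa, and 1, 3 and 1 members changed in CN from 5 to 10, BS from 0 to 2 and BS from 5 to 10 dpa. Since this step forces the same distribution on all centred arrays, its counts do not decide which changes were present.

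A fold of at least 2 gave 2 WRKY-gene-matched lower at 2 dpa, 2, 8 and 7 AT4G12020-matched lower at 0, 2 and 5 dpa, 16 and 10 members changed in CN from 2 to 5 and 5 to 10 dpa, and 17, 19 and 33 in the 3 BS steps. Without a fold threshold 30 and 34 WRKY-gene-matched were higher at 2 and 5 dpa and 2 lower at 2 dpa, 19 and 19 AT4G12020-matched higher at 0 and 2 dpa and 10, 12 and 12 lower at 0, 2 and 5 dpa, and 36, 43 and 35 members changed in the CN steps and 48, 48 and 60 in the BS steps.

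Signs of single values were compared only for the members named by the rule given above, so other called members may also have changed sign. Among the members compared, called values that changed sign did so with poly-A centring. At 2 dpa they were WRKY23 (-0.03), WRKY3 Gra.1530.2.S1_s_at (-0.02), WRKY33 Ghi.9240.3.A1_s_at (-0.08), WRKY35 (-0.36), WRKY31 (-0.32), WRKY75 GhiAffx.6177.1.S1_at (-0.29), ARSK1 (-0.19) and PERK12 GraAffx.16286.1.S1_x_at (-0.44). At 5 dpa they were WRKY53 (-0.05), PERK12 (-0.28) and Ghi.622.3.S1_s_at (-0.19). GraAffx.8891.1.S1_at, at 0.02 and not called at 2 dpa, became -2.02 and called, and with quantile normalization the MAP kinase-like protein stood at 1.97 in CN from 2 to 5 dpa (-0.25 and no call otherwise).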

Other observations

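Regulators of salicylic acid signalling and jasmonate repressors were counted from descriptions of changed transcripts. Being chosen on these arrays, these lists allow nothing to be read from their counts. The background of all probe sets called higher was 4.19%, 3.34%, 6.39% and 8.97% at 0, 2, 5 and 10 dpa. Of 3 probe sets described as PAD4 or SAG101, lipase-like proteins of salicylic acid signalling, 3, 0, 2 and 2 were called higher at 0, 2, 5 and 10 dpa, with medians of 2.41, 1.06, 2.00 and 2.26, and none was called in CN from 0 to 2 dpa in limma or with the methods' t-test (3 at an unadjusted p under 0.05 in limma). Of 7 JAZ and TIFY probe sets 1, 5, 2 and 3 were called higher and 1 lower at 10 dpa (background 11.5%), with medians of 0.78, 2.05, 1.36 and 1.57, and 2 fell in CN from 0 to 2 dpa (background 0.73%). Both alternative oxidase probe sets were called higher at 2, 5 and 10 dpa, and Ghi.2939.2.A1_s_at rose in CN from 0 to 2 dpa by 3.13.

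Seed markers, 6 probe sets for late embryogenesis abundant proteins and oleosins, stood in the mean of the list on each array between 2.15 and 2.19 in BS at 2 dpa (CN between -0.11 and -0.09) and between 3.27 and 3.36 in BS at 10 dpa (CN between 0.03 and 0.06). At 0 dpa these means lay between 0.14 and 0.49 in BS (CN between -0.87 and -0.62). At 5 dpa they lay between 0.91 and 1.1 in BS (CN between -0.0 and 0.15). The seed list went both ways, with 4 called higher and 1 lower at 10 dpa and values from -3.72 to 8.95. Some of its late embryogenesis abundant proteins are annotated as responding to stress, desiccation or water. Its values therefore do not by themselves mark seed tissue. Green boll wall markers stood between -1.55 and -1.50 in BS at 2 dpa (CN between 0.46 and 0.48) and between -0.82 and -0.78 in BS at 10 dpa (CN between 1.11 and 1.16). At 0 dpa they stood between -0.72 and -0.69 in BS (CN between -0.72 and -0.67), and at 5 dpa between 0.34 and 0.44 (CN between 0.91 and 1.02). The part of tissue make-up in the members' values was not tested.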
